A study of Mus musculus with 4 samples.

Results

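The 10 genes Snai1, Snai2, Twist1, Zeb1, Zeb2, Msx1, Msx2, Has2, Vcan and Sox9, of the endocardial cushion mesenchymal transition, were followed in embryonic mouse hearts in which the gene of Hdac3, a class I histone deacetylase, was targeted. They were taken by gene name from the array design, and the list was chosen with earlier results of these data known. All 10 genes were found, among 30199 gene names, on 14 of the 39429 probes other than controls. In all, 13 of the 14 member probes, covering all 10 genes, were bright enough to be tested, among 25484 such probes on the array. The mutant hearts were Nkx2.5Cre; Hdac3f/f mutants, in which Cre recombinase driven from Nkx2-5, a gene of cardiac progenitors, acts on a floxed Hdac3 gene. They were set against Hdac3f/f controls from the same litters, for which no Cre is stated, so loss of Hdac3 cannot be told apart from the presence of the Cre allele. Hearts were microdissected at embryonic day 9.5 from a mixed CD1/B6/129 background, and RNA of 3 hearts was pooled per sample. Each of 4 two-colour Agilent arrays paired a mutant pool with a control pool, so n = 4 pairs, which the labels call biological replicates.

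At this stage the inner lining of the heart, the endocardium, gives rise to the mesenchyme of the valves. In the atrioventricular canal and outflow tract, BMP signals from the myocardium together with TGF-beta and Notch signals lead endocardial cells to loosen their junctions and to move into a swollen matrix called cardiac jelly. Transcriptional repressors of the Snail and Zeb families, the basic helix-loop-helix factor Twist1, the homeobox factors Msx1 and Msx2, a matrix made of hyaluronan and versican, and later Sox9 are among the known components of this transition.

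The data hold a conflict over which dye carried the mutant RNA. The labels put it in Cy5 on all 4 arrays. In the normalized table that the authors deposited, whose column names put the mutant over the wild type, the ratios followed log2 Cy5 over Cy3 of the scanner signals on arrays 1 and 2 (slopes of 1.03 and 1.01 over bright spots) and ran against it on arrays 3 and 4 (slopes of -0.99 and -1.02). Between arrays, the deposited ratios correlated across spots at r between -0.40 and 0.57, and at r between 0.048 and 0.57 when all arrays were read as labelled. The direction is therefore not settled. The values below take the sign of the deposited columns, so their mutant direction is not certain. Means are also given as labelled, with Cy5 as mutant throughout, which turns the sign of arrays 3 and 4. Which probes were bright enough to test was then decided anew from the channels as labelled. Counts and percentiles over all probes under that reading are therefore of another set of tested probes. Descriptions of replicates 2, 3 and 4 name embryonic stem cells, whereas their titles, sources and genotypes name hearts. Of 12 stem cell genes, 7 were bright enough to test, namely Nanog, Zfp42, Esrrb, Klf4, Dppa5a, Utf1 and Tdgf1. The other 5, Pou5f1, Sox2, Dppa3, Dppa4 and Fgf4, were not. Of these, Pou5f1, Dppa3 and Fgf4 were not well above background in any channel. The summed log2 signal of the 7 lay between 12.28 and 12.93 in mutant channels and between 12.05 and 12.31 in control channels, and the summed signal of 15 myocardial genes lay between 20.54 and 20.79 on the log2 scale in mutant channels and between 20.39 and 20.88 in control channels. RNA came from pooled hearts of mixed cell types, so fewer cells of a type and less RNA per cell cannot be told apart.

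The targeted gene was examined first. Hdac3 had log2 ratios of mutant over control of -0.22, -0.50, -0.52 and -1.15 on arrays 1 to 4, with a mean of -0.60 ± 0.39 (SD, n = 4), which is 0.661-fold. It lay below 0 on all 4 arrays, had an unadjusted p of 0.00661 and did not pass after adjustment over all probes (adjusted p = 0.579, limma). Read as labelled, its mean was 0.24 ± 0.74. The sources used here do not say which part of Hdac3 is floxed, so whether the probe lies inside it is not known.

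No member passed the test in either direction, and neither did any other probe. Limma's moderated test with Benjamini-Hochberg adjustment called 0 of 25484 probes higher and 0 lower (background 0%), with a smallest adjusted p of 0.326. At an unadjusted p under 0.05 there were 930 higher probes (3.65%) and 1244 lower probes (4.88%), together 8.53%, and 0 of the 10 cushion genes were among them. The smallest member p was that of Snai2, at 0.0866. With 4 arrays an exact two-sided sign-flip test of a single gene cannot give a p below 0.125.

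Of the 10 genes, 6 had a mean above 0 and 4 had a mean below 0, where 51.9% of all tested probes had a mean above 0 and 48.1% a mean below 0. Snai1, Twist1 and Msx1 read above 0 on all 4 arrays, as did 9.63% of all tested probes, and Snai2 and Vcan read below 0 on all 4, as did 10.3%. For Snai1 this rests on a deposited ratio of 0.002 on array 2. Its normalised signals there were 10.38 in the mutant and 10.39 in the control channel. Twist1 was at 0.008 on array 4. The median of the 10 gene means was 0.071, beside 0.0063 over all tested probes, became 0.026 as labelled, and was 0.035 without array 3. As labelled, the members again had 6 means above 0 and 4 below, but not of the same genes, and 1 gene, Zeb2, kept one sign on all 4 arrays. The share of all tested probes that kept one sign was not computed under that reading. Between mutant and control channels the normalised signals overlapped for 10 of 10 genes, while 2.54% of all tested probes had channels that did not overlap, 1.23% with all mutant channels above and 1.31% with all mutant channels below.

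**Figure D1:**
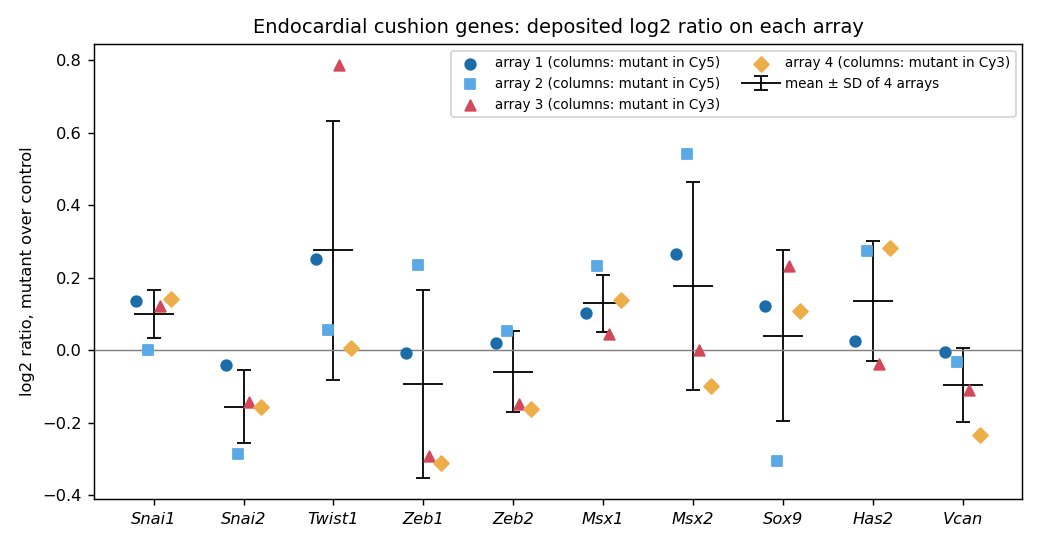
Deposited log2 ratio of mutant over control (y axis) for the 10 cushion genes (x axis) on each of the 4 arrays, with the mean and SD in black. Snai1, Twist1 and Msx1 lie above 0 on every array, Snai2 and Vcan lie below 0 on every array, and the single Twist1 value of 0.79 on array 3 is the highest point.

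The promoters of the 5 genes whose deposited ratios kept one sign on all 4 arrays were looked up. The RefSeq table of build GRCm38.p6 held 6 of the 10 genes and 4 of these 5. The 250 bases before each start site are shown so that the sequence behind the named genes can be read, with capitals marking the match to a searched motif. Snai1 lies on chr2:167537945-167538194 (plus strand), Twist1 on chr12:33957421-33957670 (plus strand), Msx1 on chr5:37824586-37824835 (minus strand) and Vcan on chr13:89742513-89742762 (minus strand).
Snai1: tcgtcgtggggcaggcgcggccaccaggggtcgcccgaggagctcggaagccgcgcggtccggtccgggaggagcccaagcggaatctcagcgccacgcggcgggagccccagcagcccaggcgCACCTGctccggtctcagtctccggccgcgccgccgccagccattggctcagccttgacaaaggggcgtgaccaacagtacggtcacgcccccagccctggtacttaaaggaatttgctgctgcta
Twist1: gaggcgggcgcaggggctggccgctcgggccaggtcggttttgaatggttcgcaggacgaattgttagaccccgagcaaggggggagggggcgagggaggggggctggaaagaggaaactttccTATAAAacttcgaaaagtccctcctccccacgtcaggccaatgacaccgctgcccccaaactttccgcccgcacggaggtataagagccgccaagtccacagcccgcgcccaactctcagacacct
Msx1: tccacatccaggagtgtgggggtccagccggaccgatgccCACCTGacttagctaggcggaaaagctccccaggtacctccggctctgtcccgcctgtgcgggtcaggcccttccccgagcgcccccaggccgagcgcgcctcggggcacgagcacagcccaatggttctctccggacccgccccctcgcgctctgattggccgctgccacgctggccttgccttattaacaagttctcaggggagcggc
Vcan: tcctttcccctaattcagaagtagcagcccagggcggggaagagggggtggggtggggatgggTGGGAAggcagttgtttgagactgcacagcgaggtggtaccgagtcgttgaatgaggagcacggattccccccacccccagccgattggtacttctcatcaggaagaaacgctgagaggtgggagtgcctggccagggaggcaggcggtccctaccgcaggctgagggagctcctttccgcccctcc
The motifs searched, on both strands, were the E-box CAGGTG that Snail and Zeb factors bind, the BMP-responsive SMAD element GGCGCC, the RBPJ core TGGGAA of the Notch pathway and the TATA box TATAAA. The E-box stood, on the reverse strand, 126 bases before the Snai1 start and 210 bases before the Msx1 start, and 17.2% of all 32841 promoter windows hold one. Twist1 held TATAAA 126 bases before its start (12.4% of windows), and Vcan held TGGGAA 187 bases before its start (21.6% of windows). GGCGCC, present in 9.59% of windows, matched none of the 6 genes. Msx2 and the 4 annotated starts of Zeb2 held none of the 4 motifs. Snai1 had the highest GC share of the 6 genes, with 70.0% GC and 27 CpG pairs against medians of 52.4% and 6 over all windows; Msx1 had 68.0% GC and 20 CpG pairs, and Twist1 had 62.4% GC and 18. A match is a description of these letters and not evidence of binding.

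Snail family repressors silence junction genes such as VE-cadherin during the transition. Snai1 was measured by 1 probe (mm9, chr2:167368073-167368132). Its log2 ratios were 0.14, 0.002, 0.12 and 0.14 on arrays 1 to 4. Arrays 1, 3 and 4 lay close together and array 2 lay near 0. The normalised log2 signals were 10.57, 10.38, 10.52 and 10.49 in mutant channels, against 10.42, 10.39, 10.41 and 10.34 in control channels. The mean was 0.10 ± 0.066 (SD, n = 4), with a 95% interval of 0.95-fold to 1.21-fold (adjusted p = 0.671, limma), and -0.031 as labelled. Snai2, which encodes Slug and acts in cushion cells downstream of Notch, was read at mm9 chr16:14709361-14709420. Ratios of -0.039, -0.28, -0.14 and -0.16 placed it below 0 on every array. Its signals were 9.23, 8.96, 8.98 and 9.03 in mutant channels and 9.30, 9.27, 9.02 and 9.19 in control channels, with the ranges overlapping. The mean was -0.16 ± 0.10 (interval 0.79-fold to 1.02-fold, adjusted p = 0.599, limma), and -0.0065 as labelled. The paralogs thus had means of opposite sign, and the difference between them was not tested.

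Zeb1 and Zeb2 encode zinc finger repressors that bind the same E-box. Zeb1 (mm9, chr18:5774613-5774672) had log2 ratios of -0.007, 0.24, -0.29 and -0.31. Arrays 3 and 4, which the columns read with the opposite dyes, were low and array 2 was high. Signals were 11.17, 11.42, 11.11 and 11.52 in mutant channels and 11.17, 11.19, 11.37 and 11.83 in control channels. Its mean of -0.093 ± 0.26 (adjusted p = 0.796, limma) became 0.21 ± 0.15 as labelled, and ranged between -0.20 and -0.021 with 1 array left out. Zeb2, also known as Sip1, was covered by 3 probes on mm9 chromosome 2. The brightest, at 44842774 to 44842833, gave 0.020, 0.054, -0.15 and -0.16, a split by dye orientation like that of Zeb1. Its signals were 10.11, 10.18, 10.11 and 10.26 in mutant channels and 10.10, 10.14, 10.21 and 10.42 in control channels. The mean was -0.059 ± 0.11 (interval 0.842-fold to 1.09-fold, adjusted p = 0.818, limma), -0.024 without array 4, and 0.096 as labelled. A second probe nearer the 3' end, at 44840038 to 44840097, read -0.20, -0.050, -0.61 and -0.047, so it was below 0 on all 4 arrays where the brightest was not. Its mean was -0.23 ± 0.27 (adjusted p = 0.601, limma), and 0.10 as labelled. The third, at 44965914 to 44965973, was not well above background in any of the 8 channels and was not tested; its 60 bases lie inside the 250 bases before 1 of the 4 annotated Zeb2 starts.

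Twist1, which keeps cushion mesenchyme in a proliferating, migrating state, was read at mm9 chr12:34644411-34644470. With the sign of the deposited columns it had the highest mean and the largest SD of the 10 genes, from log2 ratios of 0.25, 0.056, 0.79 and 0.008. Signals were 10.30, 10.07, 10.68 and 10.13 in mutant channels, against 10.05, 10.02, 9.96 and 10.13 in control channels. Array 3 stood apart through a high mutant signal and a control signal that was the lowest of the 4. The mean of 0.28 ± 0.36 (interval 0.958-fold to 1.53-fold, adjusted p = 0.602, limma) was 0.11 without array 3, and -0.12 as labelled. The mean lay at the 95.6th percentile of all tested probes, and at percentile 21.1 as labelled, where it ranked ninth of the 10 genes and Msx2 ranked first.

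Msx1 and Msx2 are homeobox genes induced by BMP signals in cushion endocardium and in the myocardium of the atrioventricular canal. Msx1 (mm9, chr5:38212305-38212364) had log2 ratios of 0.10, 0.23, 0.044 and 0.14. In every array the mutant channel was the brighter one, with signals of 9.67, 9.66, 9.74 and 9.90 in mutant channels and 9.54, 9.46, 9.67 and 9.79 in control channels. Its mean was 0.13 ± 0.079 (interval 0.967-fold to 1.24-fold, adjusted p = 0.619, limma), and 0.038 as labelled. Msx2 (mm9, chr13:53562318-53562377) had ratios of 0.27, 0.54, 0 and -0.099. The values of arrays 1 and 2 were high and those of arrays 3 and 4 were at or below 0. Signals were 10.28, 10.51, 10.48 and 10.32 in mutant channels, against 10.02, 10.00, 10.45 and 10.40 in control channels. Without array 2 its mean was 0.056. The mean over all 4 arrays was 0.18 ± 0.29 (interval 0.925-fold to 1.38-fold, adjusted p = 0.657, limma), and 0.23 ± 0.24 as labelled.

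Sox9, a transcription factor that cushion mesenchyme needs to expand and later to make cartilage-like valve matrix, had the most closely measured ratio on each array, because its probe (mm9, chr11:112648809-112648868) was printed on 10 spots. The spot means were 0.12, -0.30, 0.23 and 0.11, and the 10 spots spanned 0.031 to 0.18 on array 1, -0.37 to -0.23 on array 2, 0.20 to 0.29 on array 3 and 0.055 to 0.16 on array 4. On array 2 all 10 spots were below 0, and on each of the other arrays all 10 were above 0. The SD between spots of 1 array was 0.036, and the SD between array means was 0.24. Over the 286 probes with several spots the medians were 0.045 between spots and 0.17 between arrays. Signals were 9.78, 9.45, 9.50 and 9.29 in mutant channels and 9.68, 9.71, 9.29 and 9.18 in control channels. Its mean was 0.041 ± 0.24 (interval 0.861-fold to 1.23-fold, adjusted p = 0.912, limma). The mean was -0.024 without array 3 and -0.13 as labelled.

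**Figure D2:**
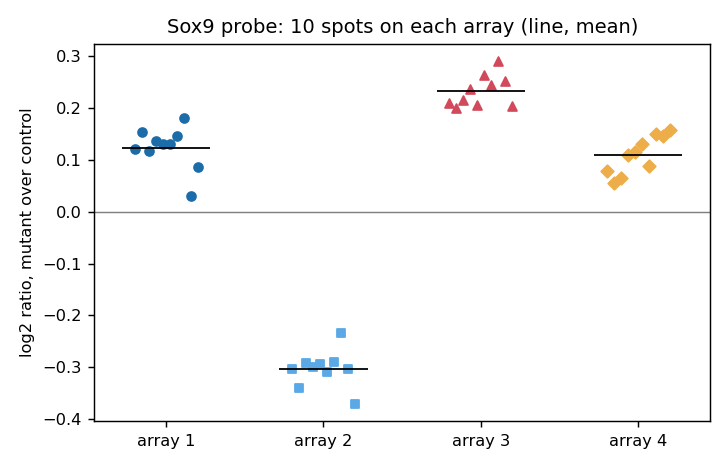
Log2 ratio of mutant over control (y axis) for each of the 10 Sox9 spots on the 4 arrays (x axis), with a line at the mean of each array. Spots of 1 array lie close together, and array 2, with a mean of -0.30, lies apart from the other arrays, whose means are 0.12, 0.23 and 0.11.

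Has2 encodes the synthase that makes most of the hyaluronan in cardiac jelly. Its probe (mm9, chr15:56497356-56497415) had log2 ratios of 0.027, 0.28, -0.038 and 0.28. Arrays 2 and 4 were high and arrays 1 and 3 were near 0, so the values did not split by dye orientation. Signals were 11.79, 11.94, 11.92 and 12.19 in mutant channels, against 11.75, 11.67, 11.96 and 11.91 in control channels. The mean was 0.14 ± 0.17 (interval 0.947-fold to 1.28-fold, adjusted p = 0.647, limma), and 0.014 as labelled.

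Vcan encodes versican, the large proteoglycan that holds hyaluronan in the matrix. It was covered by 3 probes on mm9 chromosome 13, minus strand, which differ in the transcript records they list. The brightest (89795080 to 89795139) lists 4 RefSeq records and not transcript variant 5. Its log2 ratios were -0.005, -0.031, -0.11 and -0.23, all below 0, from signals of 12.97, 13.09, 12.96 and 13.21 in mutant channels and 12.98, 13.11, 13.07 and 13.44 in control channels. The mean was -0.095 ± 0.10 (interval 0.823-fold to 1.07-fold, adjusted p = 0.696, limma), -0.049 without array 4, and 0.077 as labelled. The second (mm9, chr13:89851810-89851869) lists variant 5 and 3 other records. Its sequence is shown in lower case, with no part marked, because no other Vcan probe lists variant 5 beside other records.
Vcan probe: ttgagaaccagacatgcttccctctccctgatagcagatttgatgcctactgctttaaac
It read -0.044, -0.014, -0.50 and 0.087, with a mean of -0.12 ± 0.26 (adjusted p = 0.737, limma), and 0.089 as labelled. The third (89850072 to 89850131), which lists variant 5 alone, read -0.053, -0.15, -0.33 and 0.12, with a mean of -0.10 ± 0.19 (adjusted p = 0.732, limma), and 0.00075 as labelled. Probe means of -0.095, -0.12 and -0.10 were close to one another, and the interval of each includes 0. Array 3 was the lowest of the 4 on both probes that list variant 5, and array 4 was above 0 on them but lowest on the brightest.

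**Figure D3:**
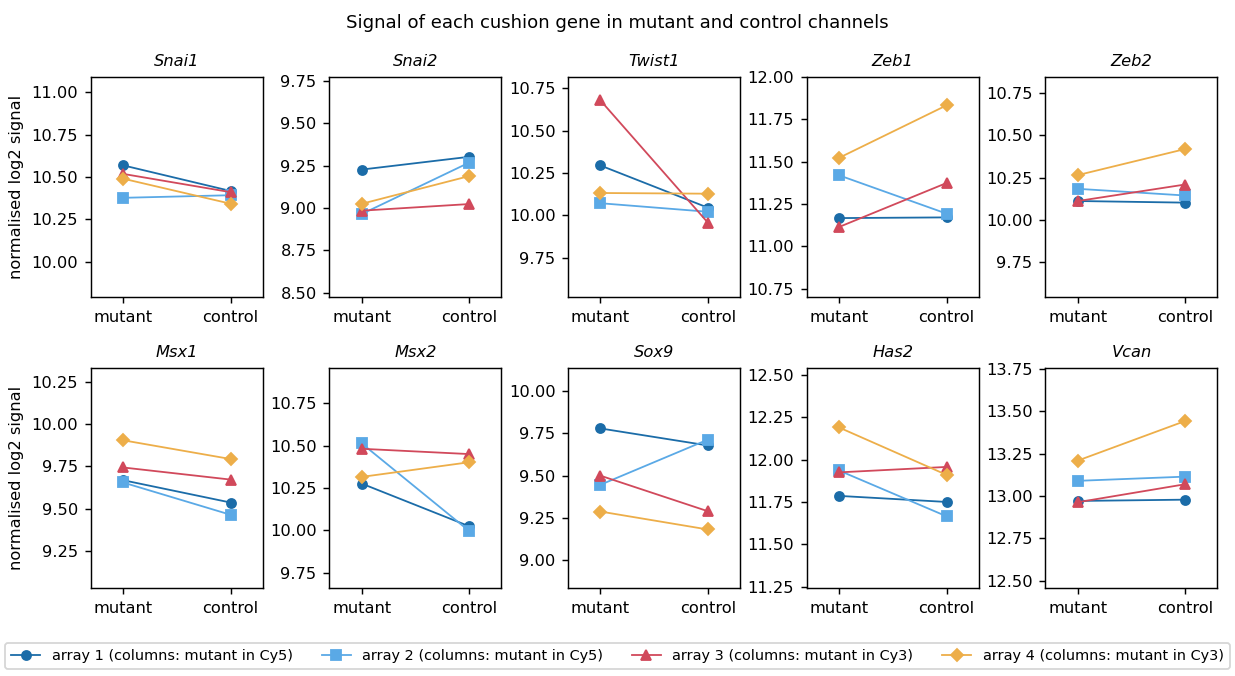
Normalised log2 signal (y axis, each panel spanning the same range) of the brightest probe of each cushion gene in the mutant channel and the control channel (x axis), with a line joining the channels of 1 array. Lines for Twist1 and Msx1 slope down from mutant to control on all 4 arrays, and those for Snai2 and Vcan slope up on all 4. Lines for Snai1, Zeb1, Zeb2, Msx2, Sox9 and Has2 differ in direction between arrays. The ranges of both groups overlap in every panel.

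The dye conflict touched the members unequally. For 4 of the 10 genes, Zeb1, Zeb2, Msx2 and Sox9, the mean of arrays 1 and 2 and the mean of arrays 3 and 4 had opposite signs, as they did for 51.4% of all tested probes. Zeb1 averaged 0.11 on arrays 1 and 2 and -0.30 on arrays 3 and 4, and Msx2 averaged 0.40 and -0.050. The other 6 kept their sign: Snai1 (0.070 and 0.13), Snai2 (-0.16 and -0.15), Twist1 (0.15 and 0.40), Msx1 (0.17 and 0.091), Has2 (0.15 and 0.12) and Vcan (-0.018 and -0.17). As labelled, the signs of Snai1, Twist1, Zeb1, Zeb2, Vcan and Sox9 turned, and those of Snai2, Msx1, Msx2 and Has2 did not. Under that reading 339 of the 12849 probes with a mean above 0 passed the test by limma, and 18 of the 12912 with a mean below 0. No cushion gene was among them, which says little about 10 genes when so few probes passed.

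**Figure D4:**
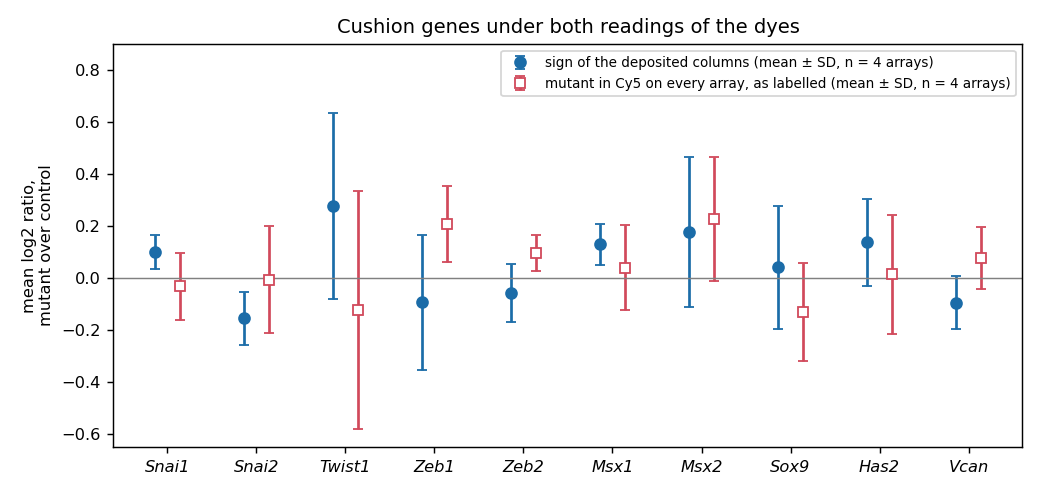
Mean log2 ratio of mutant over control (y axis) of the 10 cushion genes (x axis), with the sign of the deposited columns (filled circles) and with Cy5 taken as mutant on every array (open squares); bars are the SD of 4 arrays. Msx2 reads 0.18 and 0.23 and changes little, whereas Zeb1 reads -0.093 and 0.21 and Twist1 reads 0.28 and -0.12.

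The signals that start the transition were examined through 25 BMP and TGF-beta genes, of which 15 had a mean above 0 and 10 a mean below 0, with a median of 0.090 (14 above, 11 below and 0.024 as labelled) and 0 past the test. Bmp2, the myocardial signal for cushion formation, had log2 ratios of -0.077, 0.14, 0.41 and 0.30 (mean 0.19 ± 0.21, adjusted p = 0.604, limma). Tgfb2, the TGF-beta ligand of the cushions, averaged 0.090 ± 0.21, with 0.39 on array 4, and its other probe averaged 0.19. Smad6, an inhibitor of BMP signalling, was above 0 on all 4 arrays (0.29, 0.39, 0.40 and 0.072; mean 0.29 ± 0.15, adjusted p = 0.579, limma). Tgfb3, another ligand, was below 0 on all 4 (-0.43, -0.38, -0.14 and -0.074; mean -0.26 ± 0.17). Tgfbr3, the co-receptor that presents TGF-beta 2, averaged -0.17 ± 0.096. Smad1, which transmits BMP signals, averaged -0.32 ± 0.33 with -0.80 on array 3, while its other probe averaged 0.020. Read as labelled, the means of Bmp2, Tgfb2, Tgfbr3 and Smad1 had the opposite sign, Smad6 averaged 0.052 and Tgfb3 averaged -0.15.

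Among 19 measured genes of the Notch, WNT, ErbB and calcineurin signals (of 20 listed), 14 had a mean above 0 and 5 a mean below 0, with a median of 0.091 (11 above, 8 below and 0.011 as labelled) and 0 past the test. Nfatc1, the calcineurin-dependent factor of valve endocardium, read 0.32, 0.38, 0.49 and 0.17 (mean 0.34 ± 0.14, adjusted p = 0.579, limma), and its other probe averaged 0.48. As labelled its mean was 0.011. Notch1, the endocardial Notch receptor, read 0.50, 0.23, 1.28 and -0.20; array 3 was far above the others, and the mean was 0.46 ± 0.62 (0.18 without array 3). Hey2, a Notch target that limits cushion formation to the canal and outflow tract, read 0, -0.21, -0.99 and -0.69 (mean -0.47 ± 0.45, adjusted p = 0.579, limma) and averaged 0.37 as labelled. Nf1, a Ras inhibitor that restrains cushion growth, averaged 0.31 ± 0.25, and Nfatc2, another factor of the calcineurin pathway, averaged -0.23 ± 0.13. As labelled, Nf1 averaged 0.12, and Nfatc2 and Notch1 had the opposite sign.

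Of the 15 other cushion transcription factors, 11 had a mean above 0 and 4 a mean below 0, and 7 read above 0 on all 4 arrays, as did 9.63% of all tested probes. As labelled, 7 had a mean above 0 and 8 below, and 1 read above 0 on all 4 arrays. Their median was 0.18, and -0.018 as labelled, with 0 past the test. Tbx2 and Tbx3, T-box repressors of the atrioventricular canal, read above 0 on all 4 arrays, with means of 0.30 ± 0.24 and 0.35 ± 0.35, but 0.20 and 0.19 without array 3 and -0.16 and -0.19 as labelled. Twist2, the paralog of Twist1, read 0.19, 0.46, 0.18 and 0.26 (mean 0.27 ± 0.13, adjusted p = 0.579, limma) and 0.055 as labelled. Tbx5, a T-box activator of heart formation, averaged 0.20 ± 0.15 (0.033 as labelled).

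Partners of Has2 and Vcan in the matrix had 10 of 19 measured genes above 0 and 9 below, also as labelled, a median of 0.020 (0.016 as labelled, -0.0057 without array 2) and 0 past the test. Has1 and Has3, the other hyaluronan synthases, were among the 4 of 23 listed genes that were not bright enough to test. Adamts4, a protease of the family that cleaves versican, read -0.60, -0.30, -0.54 and -0.31 (mean -0.44 ± 0.15, adjusted p = 0.579, limma), and its other probe averaged 0.055. Adamts9, of the same family, averaged -0.16 ± 0.078, and its other probe also averaged -0.16. Adamts1 averaged 0.13 ± 0.078. Hapln1, the link protein that ties versican to hyaluronan, averaged 0.096 ± 0.10, and Stab2, a receptor that clears hyaluronan, averaged -0.20 ± 0.11. As labelled, Adamts4 averaged -0.011 and Adamts1 averaged 0.018, and the means of Adamts9, Hapln1 and Stab2 had the opposite sign.

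Products of cushion mesenchyme had 8 of 20 genes above 0 and 12 below, where 51.9% of all tested probes were above 0, a median of -0.030 (9 above, 11 below and -0.015 as labelled) and 0 past the test. Postn, which encodes the matrix protein periostin, had the lowest mean of the list, with log2 ratios of -0.50, -1.30, -0.68 and -0.51 (mean -0.75 ± 0.38, unadjusted p = 0.00186, adjusted p = 0.579, limma). Array 2 was the lowest and all 4 arrays were below 0, and as labelled the mean was -0.16. Vim, encoding the intermediate filament vimentin, read -0.14, -0.33, -0.29 and -0.55 (mean -0.33 ± 0.17), but 0.094 as labelled. Dcn, encoding decorin, averaged -0.51 ± 0.60 with -1.33 on array 2, and -0.24 without that array (-0.43 as labelled). Cdh2, the N-cadherin of mesenchyme and myocardium, averaged 0.17 ± 0.14, and its other probe averaged -0.001 (-0.092 as labelled for the brighter probe).

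Several members are also expressed outside the cushions, so marker lists of the other tissues a heart dissection can hold are given beside them. The 20 endocardial and endothelial genes had a median of 0.12 (-0.032 as labelled), with 15 above 0 (9 as labelled) and Cdh5, the VE-cadherin gene, at 0.24 ± 0.21 (-0.027 as labelled); their summed log2 signal lay between 16.67 and 17.02 in mutant channels and between 16.52 and 16.78 in control channels. Neural crest, which also uses Snai2, Twist1, Msx1, Msx2 and Sox9, had 10 of 16 genes measured, 7 of them above 0, a median of 0.043 (0.080 as labelled) and summed signals of 12.23 to 12.49 in mutant channels and 12.33 to 12.42 in control channels. Its defining gene Foxd3 was not well above background in any channel. Somite and limb mesenchyme had 9 of 16 genes measured, 6 above 0, a median of 0.085 (0.027 as labelled) and summed signals of 11.81 to 11.96 in mutant channels and 11.64 to 11.97 in control channels, and Myf5 and Pax1 were not well above background in any channel. The part of these tissues in the members' values was not tested.

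The epicardium, whose cells also undergo such a transition, had 9 of 10 genes below 0. Its median was -0.15, with -0.49 on array 2 and -0.074 without that array. As labelled, 6 were below 0 and the median was -0.10. Its summed signal lay between 14.60 and 14.78 in mutant channels and between 14.53 and 14.86 in control channels. Primitive red cell genes had 9 of 9 below 0 and a median of -0.28 (-0.16 without array 2; 5 below and -0.014 as labelled), again lowest on array 2, at -0.63, with summed signals of 18.32 to 19.19 in mutant channels and 19.02 to 19.37 in control channels. Endoderm and liver bud genes had 8 of 8 measured genes above 0, of 14 listed, and a median of 0.21 (4 above and -0.010 as labelled), with summed signals of 15.08 to 15.70 in mutant channels and 15.11 to 15.27 in control channels; Foxa1 was not well above background in any channel. The 15 myocardial genes had 7 means above 0 and 8 below, with a median of -0.0068, and medians of 0.085 and 0.22 on arrays 1 and 2 and of -0.14 and -0.33 on arrays 3 and 4, the same split by dye orientation as Zeb1 and Zeb2. As labelled, 13 were above 0 and 2 below, with a median of 0.20. The stem cell list had 7 of 12 genes measured, with 4 above 0 and a median of 0.072 (-0.021 as labelled). These lists had 0 genes past the test, and their part in the members' values was not tested.

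**Figure D5:**
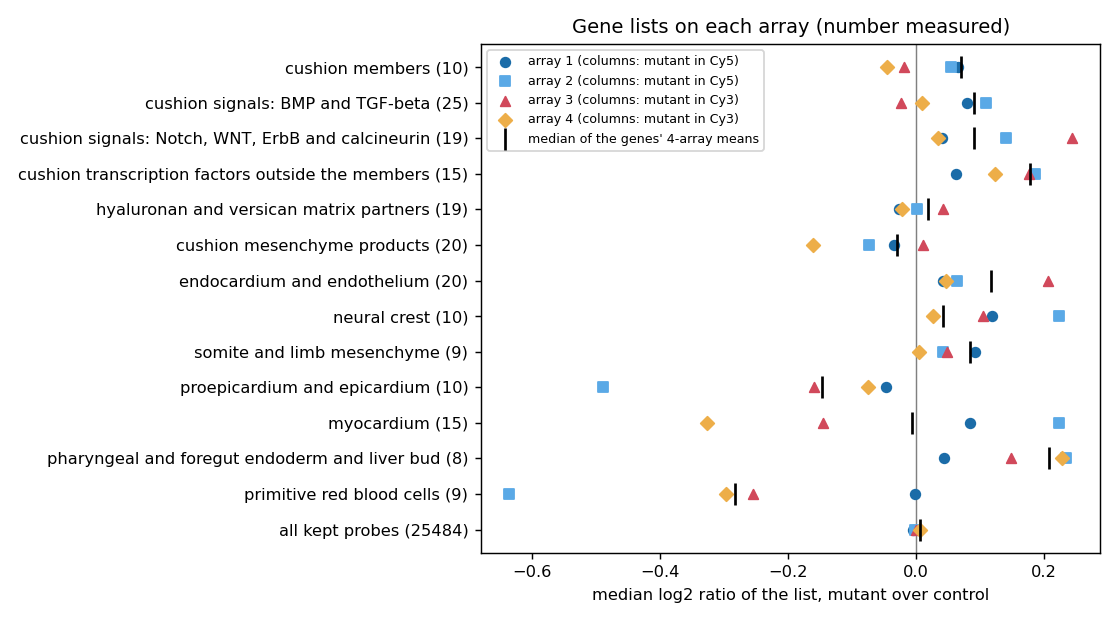
Median log2 ratio of mutant over control (x axis) on the 4 arrays, for each gene list but the stem cell genes, and for all tested probes. The y axis gives the number of genes or probes measured. A black tick marks the median of their 4-array means. The 10 cushion genes lie between -0.046 and 0.065, myocardial genes split between arrays 1 and 2 and arrays 3 and 4, and red cell and epicardial genes are lowest on array 2.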

How the data were processed

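RNA of 4 mutant and 4 control pools was hybridised on 4 two-colour arrays of 1 slide, so a slide block was not possible, and mutant and control are paired within each array. The authors deposited a table of normalized log2 ratios, mutant over wild type by its column names (normalization not given in the sources used here), as well as scanner intensity values of both dyes, made with Agilent Feature Extraction 11.5.1.1 per the file headers and 8.5.1.1 per the submitters' processing notes. Column medians were -0.029, -0.017, 0.017 and 0.023. Control spots were left out, spots of a probe were averaged, and a probe was kept when well above background on all 4 arrays, either in their mutant channels or in their control channels. In a single channel of 1 array, 66.6% to 71.2% of probes were well above background, and 0 spots were saturated. The number of arrays limits the precision. Ratios were tested against 0 with limma 3.58.1 (lmFit and eBayes) in R 4.3.3, with Benjamini-Hochberg adjustment over all 25484 kept probes and a threshold of 0.05. The test was checked on simulated ratios with independent normal noise and no dye effect, so that check does not cover the dye conflict. Signals per channel came from normexp (offset 50), loess and Aquantile, in the orientation of the deposited columns. The brightest probe stands for a gene. Probe positions are on mm9, per the file headers, and gene symbols are those of the array design; promoters come from RefSeq.

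The members, gene lists and tests were chosen with earlier results of these data known. Named genes were Hdac3, the members, the 4 genes of smallest unadjusted p in each pathway list, and Bmp2, Tgfb2, Notch1, Nfatc1, Twist2, Hapln1, Cdh5 and Adamts9. Marker genes named as dim were chosen after their values were seen. Alternatives covered the sign, the normalization, the filter, the pairing, a dye term, array weights, single probes against gene means and each array left out; leaving out the spots the scanner software marked as outliers and using arrays 1 and 2 alone were added after seeing the data.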

Additional observations from a re-analysis of the deposited data

Results flagged for a closer look

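Of 53 values over the 4 arrays, 3 had 1 array far from the other 3 by Dixon's criterion, and chance alone gives about 1 in 20. Snai1 was at 0.002 on array 2, apart from values of 0.14, 0.12 and 0.14 on arrays 1, 3 and 4. Nf1 was at -0.054 on array 4, apart from 0.48, 0.39 and 0.43 on the others. The median of the 20 endocardial and endothelial genes was 0.21 on array 3, against 0.042, 0.064 and 0.047 on the others.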

How the results depend on the processing

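With 4 arrays, the 95% intervals of all 10 cushion genes include 0, and 0 cushion genes passed the test under any alternative that was tested; the mean of a gene's probes, which bears on Zeb2 and Vcan, gave values with no test. Snai2, Msx1, Msx2 and Has2 kept their sign under all alternatives. All arrays read as labelled turned Snai1 (-0.031), Twist1 (-0.12), Zeb1 (0.21), Zeb2 (0.096), Vcan (0.077) and Sox9 (-0.13), and likewise Hdac3 (0.24), Smad1 (0.16), Tgfbr3 (0.024), Nfatc2 (0.052), Hey2 (0.37), Tbx2 (-0.16), Tbx3 (-0.19), Stab2 (0.076), Adamts9 (0.016), Vim (0.094), Cdh2 (-0.092), Bmp2 (-0.16), Tgfb2 (-0.058), Notch1 (-0.088), Hapln1 (-0.087) and Cdh5 (-0.027). Array weights turned Zeb1 (0.040), Zeb2 (0.0073) and Sox9 (-0.029), and arrays 1 and 2 only turned Zeb1 (0.11), Zeb2 (0.037) and Sox9 (-0.090). Leaving out 1 array at a time gave means of -0.024 to 0.16 for Sox9, negative without array 3, and of -0.011 to 0.15 for Tgfb2, negative without array 4. Leaving out 1 array also moved other means by over 1.5 times, among them those that follow. Without array 3, Twist1 was 0.11, the median of the cushion genes 0.035, Zeb1 -0.027, Zeb2 -0.029 and Notch1 0.18. Hey2 was then -0.30, Smad1 -0.16, Bmp2 0.12, Cdh2 0.11, Cdh5 0.14, Tbx2 0.20, Tbx3 0.19 and the endocardial median 0.076. Without array 4, Vcan was -0.049, Zeb1 -0.021, Zeb2 -0.024, Msx2 0.27, Has2 0.088 and Hapln1 0.058. Without array 2, Zeb1 was -0.20, Zeb2 -0.096, Msx2 0.056 and Dcn -0.24. Tbx5 was then 0.13, the red cell median -0.16 and the epicardial median -0.074. Probes past the test, higher and lower, numbered 339 and 18 as labelled, 17 and 2 with arrays 1 and 2 only, and 1 lower with array weights; leaving out 1 array at a time gave 0 to 4 higher probes, 4 without array 1. Probes at an unadjusted p under 0.05 were 1967 higher as labelled, 1707 higher and 2071 lower with a dye term, 2575 higher and 2608 lower with array weights, 3335 higher and 3426 lower with arrays 1 and 2 only, and 718 to 832 higher and 819 to 1235 lower with 1 array left out. Without the pairing of channels on an array (no replicate block), a fit that also starts from the scanner signals, these were 387 higher and 404 lower, against 938 and 1106 in the paired fit of the scanner signals; 0 passed the adjusted test, and no member changed sign. List medians moved as labelled for BMP and TGF-beta signals (0.024), other cushion transcription factors (-0.018), endocardium (-0.032), somite and limb mesenchyme (0.027), endoderm (-0.010), red cells (-0.014) and stem cell genes (-0.021). The myocardial median also changed, from -0.0068 to 0.20 as labelled. That of the Notch, WNT, ErbB and calcineurin genes went from 0.091 to 0.011, and that of the cushion genes from 0.071 to 0.026. The neural crest median went from 0.043 to 0.080, and that of mesenchyme products from -0.030 to -0.015. Other transcription factors had 0.12 with arrays 1 and 2 only. The neural crest median was 0.021 to 0.13 with 1 array left out. Somite and limb mesenchyme had 0.13 with processed signals, 0.016 with array weights and 0.048 to 0.078 with 1 array left out. Endoderm had 0.098 with array weights and 0.090 with arrays 1 and 2 only. The cause of these shifts was not tested.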
